A study of Homo sapiens with 15 samples.

Results

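The genes described here were 9 members of the NRF2 antioxidant programme, NFE2L2, KEAP1, HMOX1, NQO1, GCLM, GCLC, SRXN1, TXNRD1 and ME1. They were picked by gene symbol among the 25737 gene entries of the deposited table, and the rule has no threshold on their values, although earlier results of these data were known when the genes were chosen. Expression was measured by QuantSeq, a 3′ mRNA sequencing kit that counts tags from the end of each transcript, in U87MG, an established human glioblastoma cell line. Cells received lentivirus for 24 h and fell into 5 groups of 3 libraries, which were GFP (the control vector) and overexpression of ID1, ID2, ID3 or ID4. The ID proteins are helix-loop-helix factors that lack a DNA-binding region and block the basic helix-loop-helix factors they pair with. All groups shared the cell line, the medium and the lentiviral treatment, and GFP was the sole control group. The sources used here do not name the promoter of the ID vectors, the cultures or any batch. The labels also do not say whether the 3 libraries of a group came from separate cultures, so p-values measure only the spread between these libraries, which may be technical.

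NRF2, the protein of NFE2L2, is a transcription factor that KEAP1 holds in the cytoplasm and passes to CUL3 for degradation. Oxidants and electrophiles modify KEAP1, and NRF2 then accumulates, pairs with small MAF proteins and binds antioxidant response elements beside its target genes. Much of this control acts on the NRF2 protein rather than on its mRNA, so transcript counts of NFE2L2 and KEAP1 do not measure NRF2 activity. The targets supply glutathione (GCLC, GCLM), keep thioredoxin and peroxiredoxins reduced (TXNRD1, SRXN1), degrade heme (HMOX1), reduce quinones (NQO1) and make NADPH (ME1). In glioblastoma the programme is known for its part in resistance to oxidative stress and to alkylating drugs.

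The core of the antioxidant response element, TGACNNNGC, was searched on both strands of promoter windows from RefSeq (build GRCh38.p14), each from 250 bases before a transcription start to 50 bases after it. Of 35116 windows of all genes, 4687 (13.3%) held the core. Windows were listed for 8 of the 9 members, 11 in all, and 5 of them, from KEAP1, GCLM, TXNRD1 and ME1, held it. HMOX1 had no entry. These short stretches are shown because they are the sites in the listed windows that hold the core. The genes were chosen as members of the NRF2 programme, and NRF2 binds such elements. The share of member windows with the core is therefore not independent of that choice. The windows of NFE2L2, NQO1, GCLC and SRXN1 and the first KEAP1 start did not hold these letters. Each is printed 5′ to 3′ on the strand of its gene with the core in capitals, and a core on the opposite strand reads as GCNNNGTCA.
KEAP1, second start, chr19:10502807-10502835: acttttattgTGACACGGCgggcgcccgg
KEAP1, second start, chr19:10502784-10502812: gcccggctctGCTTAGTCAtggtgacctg
GCLM, chr1:93909446-93909474: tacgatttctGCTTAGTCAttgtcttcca
TXNRD1, first start, chr12:104215670-104215698: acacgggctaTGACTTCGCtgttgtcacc
TXNRD1, first start, chr12:104215761-104215789: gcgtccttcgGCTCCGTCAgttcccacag
TXNRD1, second start, chr12:104286920-104286948: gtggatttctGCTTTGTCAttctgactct
ME1, chr6:83431170-83431198: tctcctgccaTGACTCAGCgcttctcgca
ME1, chr6:83431022-83431050: gctgcagtcaGCACCGTCAccccagcagc
The core began 34 bases before the start of GCLM, 54 and 31 bases before the second start of KEAP1, 99 and 8 bases before the first start of TXNRD1 and 102 bases before its second. In ME1 it began 137 bases before the start and at base 12 after it. A match describes sequence and is not a measured binding site, and a window without these letters says nothing about NRF2 at that gene.

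Total counts per library ranged from 11089044 to 15148979, which puts the detection floor of 3 counts at 0.198 to 0.271 CPM (a gene's count scaled to 1000000 counts per library). Replicate 3 of ID2 stood apart, with a chi-square per degree of freedom of 10.8 and 11.3 against the other ID2 libraries where other pairs within a group gave 2.25 to 5.22, so the ID2 calls of members are given with and without it. The overexpressed genes were not all raised under their own labels. ID1 was at 344 CPM ± 6.96 (SD, n = 3) in GFP and at 250 ± 3.599 in the libraries labelled ID1, and ID2 was at 85.7 ± 2.81 in GFP and 44.9 ± 1.28 in those labelled ID2. ID3 was at 221 ± 8.33 in GFP and 313 ± 11.4 in the libraries labelled ID3, and also at 287 ± 27.8 in those labelled ID2. The ID2 and ID3 labels did not differ in the level of ID3 (adjusted p = 0.416, edgeR). ID4 had 0 to 2 counts per library in GFP and 2479 to 3110 in the libraries labelled ID4. ID2 was below its GFP level under the other labels too, at 34.3 ± 2.59 in ID1, 46.7 ± 1.73 in ID3 and 35.9 ± 1.54 in ID4. Whether a 3′ tag of a vector transcript is assigned to its gene was not tested, and groups are named by their labels throughout. The glioma markers VIM (3481 to 4765 CPM) and CD44 (493 to 616 CPM) were abundant in every library, with NES at 16.6 to 29.8 CPM. GFAP, S100B and SOX2 had 0 to 4 counts and OLIG2 2 to 11, so of the 7 markers listed for the line these 4 were near 0. The immune marker PTPRC had 0 to 8 counts and CD68 49.0 to 73.4 CPM, while EPCAM, KRT18, PECAM1 and RBFOX3 did not exceed 15 counts in any library.

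Changes in the NRF2 genes were small and did not run in a common direction. HMOX1 rose under ID2 and ID3, SRXN1 and TXNRD1 fell under the same labels, GCLM fell under ID1 and ID3, and NQO1 rose under ID4. Refits left out each library in turn or changed the filter, normalization or test, with the same threshold. Both rises of HMOX1 and the fall of TXNRD1 under ID2 held in all of these refits. Each other call was lost in some of them, as given below by gene. The 2 regulators NFE2L2 and KEAP1, together with GCLC, passed the test in no comparison with GFP, and ME1 was hardly detected. Each comparison used the quasi-likelihood test of edgeR on raw counts, with p-values adjusted by Benjamini-Hochberg over 12870 genes and a threshold of 0.05. These genes were the upper 50% of entries by mean deposited log2 value (at least 3.22), and 8 of the 9 members were among them. The mean was taken over all libraries, so no group decided which members entered.

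Against GFP, 9 of 32 member comparisons passed. Under ID1, 0 of 8 tested members were higher and 1 lower, where 12.4% of all tested genes were higher and 9.73% lower. Under ID2, 1 was higher and 2 lower (18.5% and 16.7% of all tested genes), and under ID3, 1 was higher and 3 lower (15.1% and 13.5%). Under ID4, 1 was higher and 0 lower (12.1% and 9.51%). These are counts of 0 to 3 genes out of 8, and nothing is read from them about the members as a group. The median log2 fold change of the 8 genes was -0.07 under ID1, -0.13 under ID2, 0.01 under ID3 and -0.05 under ID4, beside medians of 0.00098, -0.0039, -0.0025 and -0.0013 over all tested genes. In the test of any difference among the 5 groups, 6 of the 8 passed, against 44.8% of all tested genes. The 4 comparisons share the GFP libraries and are not independent of each other. Between ID groups, the share of all tested genes that passed in either direction was 18.6% for ID2 against ID1, 9.18% for ID3 against ID1, 4.87% for ID4 against ID1, 15% for ID3 against ID2, 18.6% for ID4 against ID2 and 11.3% for ID4 against ID3. The members that passed in these pairs were 2, 2, 1, 1, 2 and 4 of 8, in that order. Without ID2 replicate 3, NFE2L2 (log2 fold change 0.07), NQO1 (0.02), GCLM (-0.09) and GCLC (-0.15) again did not pass in ID2 against GFP, while KEAP1 did.

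**Figure D1:**
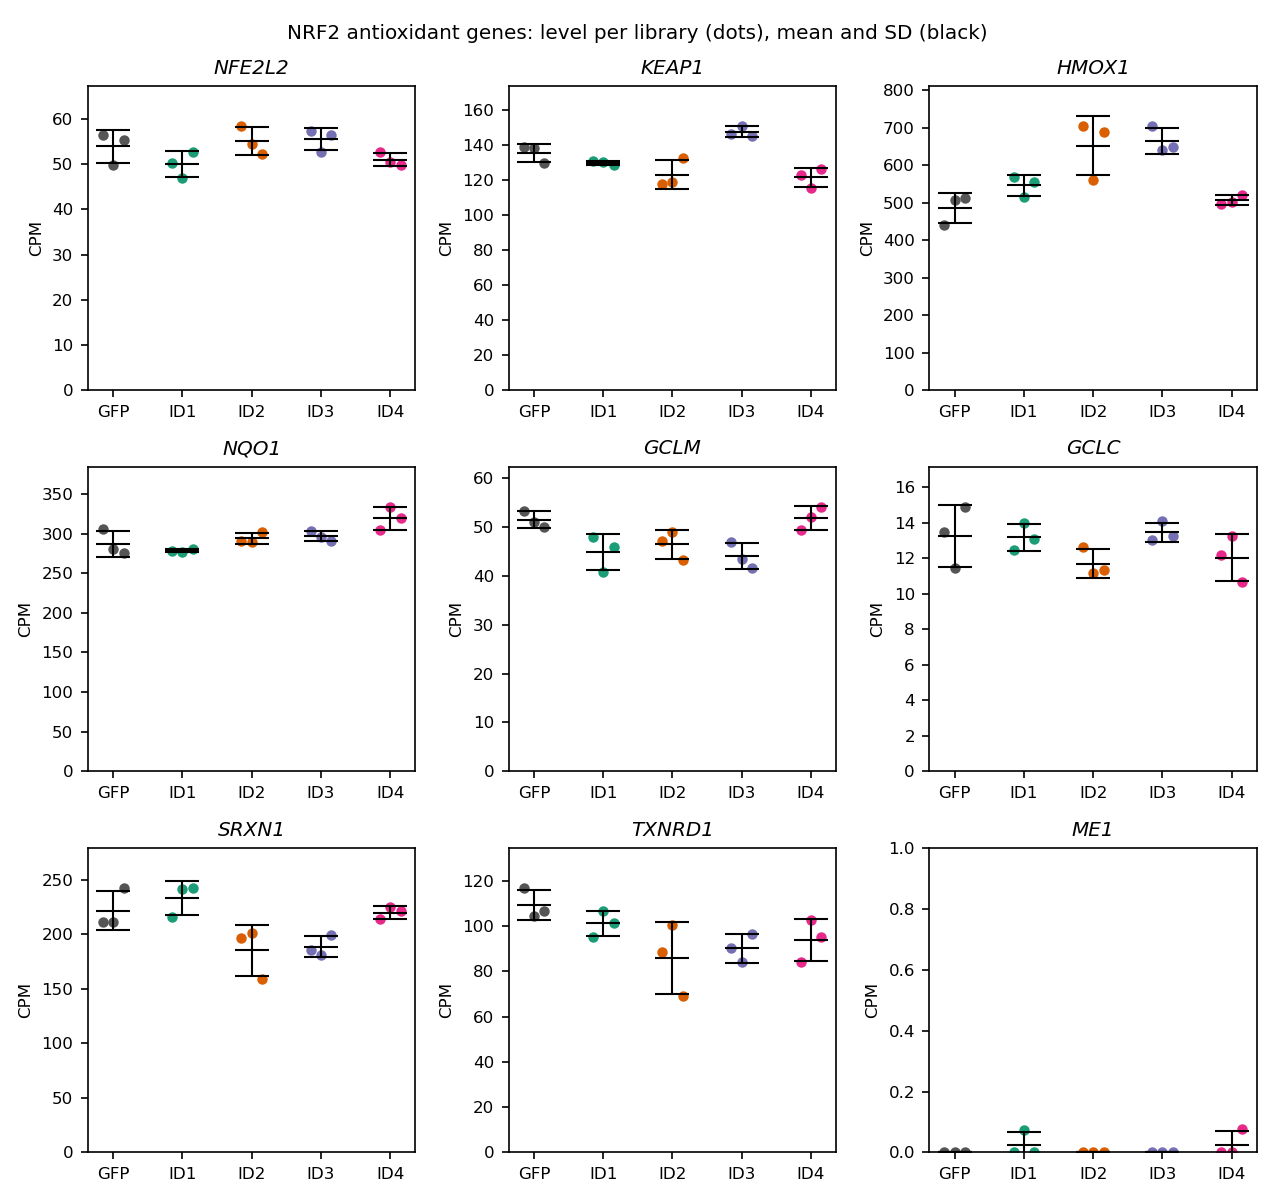
Level of each of the 9 genes in CPM (vertical axis, linear, from 0) in the 15 libraries, by group (horizontal axis); dots are libraries and black marks are the mean and SD of 3 libraries. HMOX1 is higher in the ID2 and ID3 libraries than in every GFP library, SRXN1 and TXNRD1 are lower there, and ME1 lies at 0 in 13 libraries and at 1 count in 2.

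NFE2L2 encodes NRF2 itself and lies on chromosome 2 from 178095036 to 178129455, minus strand (positions of members are those of the reference transcript on GRCh37, the build of the files). It was measured at 56.5, 49.7 and 55.4 CPM in GFP, 50.2, 46.9 and 52.6 in ID1, 58.5, 54.4 and 52.3 in ID2, 57.3, 52.7 and 56.5 in ID3 and 52.6, 50.5 and 49.8 in ID4. Each ID group overlapped GFP, while the lowest ID3 library was just above the highest ID1 and ID4 libraries. The order of the means ran from ID3 (55.5 CPM) through ID2, GFP and ID4 to ID1 (49.9 CPM). The highest and lowest of these did not differ beyond their spread (adjusted p = 0.176, edgeR). The fit gave a larger difference for ID2 against ID1 (log2 fold change 0.17, adjusted p = 0.0771, edgeR), which did not pass either. Without ID2 replicate 3 that difference was 0.20 (adjusted p = 0.0532, edgeR). Over the 5 groups together NFE2L2 gave an adjusted p of 0.143. Its log2 fold changes against GFP lay between -0.13 under ID1 and 0.05 under ID2, with adjusted p from 0.203 to 0.850.

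KEAP1, the sensor that targets NRF2 for degradation, lies on chromosome 19 from 10596801 to 10614032, minus strand. It was at 139, 138 and 129.8 CPM in GFP, 131, 130.4 and 129 in ID1, 118, 119 and 133 in ID2, 146, 151 and 146 in ID3 and 123.4, 116 and 126 in ID4. Every ID3 library was above every other library, and every ID4 library was below every GFP library. Neither group passed against GFP, with log2 fold changes of 0.10 (SE 0.06, adjusted p = 0.201) under ID3 and -0.16 (SE 0.06, adjusted p = 0.0569) under ID4. The ID groups did differ among themselves. KEAP1 was 1.198-fold lower in ID4 than in ID3 (log2 fold change -0.26, adjusted p = 0.00552) and 1.17-fold higher in ID3 than in ID2 (0.22, adjusted p = 0.0106). Over the 5 groups its adjusted p was 0.00511. Without ID2 replicate 3, whose 133 CPM was the highest of its group, KEAP1 was lower in ID2 than in GFP (-0.19, adjusted p = 0.0126, edgeR). In the same fit ID3 against ID2 was 0.29 (adjusted p = 0.000759, edgeR). Without GFP replicate 3 KEAP1 was lower in ID4 than in GFP (-0.19, adjusted p = 0.0445, edgeR).

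HMOX1 showed the largest fold changes against GFP among the 8 tested members in ID2 and ID3, though not in ID1 or ID4. It encodes heme oxygenase 1, which opens the heme ring to biliverdin, carbon monoxide and iron, and lies on chromosome 22 from 35777089 to 35790200, plus strand. Its level was 440.5, 508 and 513 CPM in GFP, 569.9, 515 and 556 in ID1, 706, 561 and 690.1 in ID2, 706, 642 and 648 in ID3 and 497, 503 and 523 in ID4. All 6 libraries of ID2 and ID3 lay above every GFP and every ID4 library. Against GFP the rise was 1.35-fold in ID2 (log2 fold change 0.44, SE 0.07, adjusted p = 7.57e-05) and 1.35-fold in ID3 (0.43, SE 0.07, adjusted p = 0.000147). The lowest ID1 library (515 CPM) was just above the highest GFP library (513 CPM), and the log2 fold change of 0.15 (SE 0.07) did not pass (adjusted p = 0.163). In ID4 the value was 0.06 (adjusted p = 0.656). The immune marker CD68 also differed between the groups, at 52.2 CPM ± 3.71 (SD, n = 3) in GFP, 51.8 ± 1.41 in ID1, 71.7 ± 1.80 in ID2, 60.7 ± 4.82 in ID3 and 60.5 ± 5.20 in ID4. PTPRC, the defining marker of immune cells, stayed at 0 to 8 counts per library, and the part of CD68 in the HMOX1 result was not tested.

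The tests between ID groups separated HMOX1 into a higher pair and a lower pair. It was higher in ID2 than in ID1 (log2 fold change 0.29, SE 0.07, adjusted p = 0.00850) and than in ID4, where ID4 against ID2 was -0.38 (adjusted p = 0.000896). It was likewise higher in ID3 than in ID1 (0.28, adjusted p = 0.0203) and than in ID4, where ID4 against ID3 was -0.37 (adjusted p = 0.00230). ID3 and ID2, next to each other in the order of means at 665 and 652.5 CPM, did not differ beyond their spread, and neither did ID1 and ID4 or ID4 and GFP. Leaving out each library in turn kept both rises, between 0.36 and 0.54 in ID2 and between 0.35 and 0.47 in ID3, with adjusted p up to 0.00162 in edgeR. Without ID2 replicate 3 the rise in ID2 was 0.39 (adjusted p = 0.000131). In the same fit ID2 against ID1 was 0.24 (adjusted p = 0.0236, edgeR) and ID4 against ID2 was -0.33 (adjusted p = 0.00202, edgeR).

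NQO1, a quinone reductase commonly used as a readout of NRF2 activity, lies on chromosome 16 from 69743304 to 69760463, minus strand. Its last 1000 bases overlap an opposite-strand lncRNA that is not among the table's entries, and whether counting used strand is not given in the sources used here. NQO1 was at 306, 281 and 275 CPM in GFP, 278.5, 276 and 280.4 in ID1, 290.2, 289.8 and 302 in ID2, 304, 296 and 291 in ID3 and 305, 334 and 320.1 in ID4. The ID1 to ID3 libraries lay within the range of GFP, and 2 of the 3 ID4 libraries lay above it. NQO1 rose 1.11-fold in ID4 (log2 fold change 0.15, SE 0.05, adjusted p = 0.0280, edgeR) and was 1.16-fold higher in ID4 than in ID1 (0.21, adjusted p = 0.0104). Its highest and lowest groups were ID4 (320 CPM ± 14.5, SD, n = 3) and ID1 (278 CPM ± 1.996), and no neighbours in the order of the 5 means differed. The rise in ID4 was lost without GFP replicate 2, GFP replicate 3, ID4 replicate 2 or ID4 replicate 3, where the log2 fold change was 0.12 to 0.15 and the adjusted p 0.0716 to 0.133. It was also lost with no filter on low values (adjusted p = 0.0606).

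GCLM and GCLC encode the modifier and catalytic subunits of glutamate-cysteine ligase, the rate-limiting enzyme of glutathione synthesis. GCLM, on chromosome 1 from 94350755 to 94374986, minus strand, was at 53.3, 51.0 and 50.1 CPM in GFP, 47.9, 40.7 and 46.0 in ID1, 47.1, 49.0 and 43.2 in ID2, 46.9, 43.3 and 41.7 in ID3 and 49.3, 52.0 and 54.1 in ID4. All 9 libraries of ID1, ID2 and ID3 lay below the GFP libraries, and the ID4 libraries overlapped them. GCLM fell 1.19-fold in ID3 (log2 fold change -0.25, SE 0.07, adjusted p = 0.0120, edgeR) and 1.16-fold in ID1 (-0.21, SE 0.07, adjusted p = 0.0347). In ID2 the value was -0.13 and did not pass (adjusted p = 0.164). ID4 was 1.19-fold above ID3 (0.26, adjusted p = 0.0234), the sole pair of ID groups that differed. The call in ID1 was lost without any of 5 of the 6 libraries compared, all but ID1 replicate 1, with log2 fold changes of -0.23 to -0.15 and adjusted p from 0.0516 to 0.193. With no filter on low values it was also lost (adjusted p = 0.0546), and in that fit HMOX1 passed in ID1 instead, as higher (0.15, adjusted p = 0.0437). The call in ID3 was lost without ID3 replicate 3 (-0.22, adjusted p = 0.0541).

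GCLC, on chromosome 6 from 53362139 to 53409899, minus strand, was measured at 138 to 198 counts per library. Its levels were 13.5, 11.4 and 14.9 CPM in GFP, 12.5, 13.98 and 13.1 in ID1, 12.6, 11.2 and 11.4 in ID2, 13.03, 14.1 and 13.2 in ID3 and 12.2, 13.3 and 10.7 in ID4. GFP alone covered nearly this whole range. The log2 fold changes lay between -0.16 in ID2 (SE 0.12) and 0.00033 in ID3 (SE 0.11), and GCLC did not pass in any comparison or over the 5 groups (adjusted p = 0.515, edgeR). The 2 subunits of the ligase therefore gave different counts of calls, but the difference between GCLM and GCLC was not itself tested.

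SRXN1 and TXNRD1 serve the thioredoxin and peroxiredoxin system and were lower in ID2 and ID3. SRXN1 encodes sulfiredoxin, which repairs over-oxidized peroxiredoxins, and lies on chromosome 20 from 627259 to 633844, minus strand. Its last 1000 bases overlap a same-strand protein-coding gene that is not among the table's entries, so its counts are uncertain in that respect. SRXN1 was at 211, 212 and 243 CPM in GFP, 215, 241 and 243 in ID1, 197, 201 and 159 in ID2, 185, 181 and 199 in ID3 and 214, 225 and 222 in ID4. All 6 libraries of ID2 and ID3 lay below all 9 of the other groups. SRXN1 fell 1.18-fold in ID2 (log2 fold change -0.24, SE 0.08, adjusted p = 0.0158, edgeR) and 1.19-fold in ID3 (-0.26, SE 0.08, adjusted p = 0.0146), and the values for ID1 and ID4 were 0.06 and -0.01.

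Between ID groups, SRXN1 was 1.23-fold lower in ID2 than in ID1 (log2 fold change -0.30, adjusted p = 0.00758, edgeR) and 1.24-fold lower in ID3 than in ID1 (-0.31, adjusted p = 0.0117). ID4 was 1.17-fold above ID2 (0.23, adjusted p = 0.0400) and 1.18-fold above ID3 (0.24, adjusted p = 0.0433). The library that stood apart, ID2 replicate 3, had the lowest SRXN1 of all libraries at 159 CPM. Without it the fall in ID2 against GFP was -0.15 and did not pass (adjusted p = 0.0820), ID4 no longer differed from ID2 by the test (0.14, adjusted p = 0.170), and ID2 remained lower than ID1 (-0.20, adjusted p = 0.0324). The fall in ID2 was also lost without GFP replicate 3 (-0.17, adjusted p = 0.108) and with only the 2 groups in the fit (-0.24, adjusted p = 0.0593). In ID3 it was lost without GFP replicate 3 (-0.18, adjusted p = 0.105), ID3 replicate 1 (-0.24, adjusted p = 0.0563) or ID3 replicate 2 (-0.23, adjusted p = 0.0576).

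TXNRD1 encodes cytosolic thioredoxin reductase 1, which uses NADPH to reduce thioredoxin, and lies on chromosome 12 from 104609557 to 104744085, plus strand. It was at 117, 104 and 107 CPM in GFP, 95.3, 107 and 101 in ID1, 88.4, 100.3 and 68.9 in ID2, 90.1, 83.9 and 96.5 in ID3 and 84.2, 103 and 94.96 in ID4. GFP had the highest mean (109 CPM ± 6.72, SD, n = 3), and all 9 libraries of ID2, ID3 and ID4 lay below the GFP libraries. TXNRD1 fell 1.26-fold in ID2 (log2 fold change -0.33, SE 0.10, adjusted p = 0.00903, edgeR) and 1.23-fold in ID3 (-0.30, SE 0.10, adjusted p = 0.0222). In ID4 it was -0.22 (adjusted p = 0.105) and in ID1 -0.13 (adjusted p = 0.379), and no pair of ID groups differed. ID2 replicate 3 was again the lowest library. Without it the fall in ID2 was -0.20 and still passed (adjusted p = 0.0427). The fall in ID3 was lost without GFP replicate 1 (-0.26, adjusted p = 0.0920), ID3 replicate 1 (-0.29, adjusted p = 0.0661) or ID3 replicate 2 (-0.26, adjusted p = 0.0939).

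**Figure D2:**
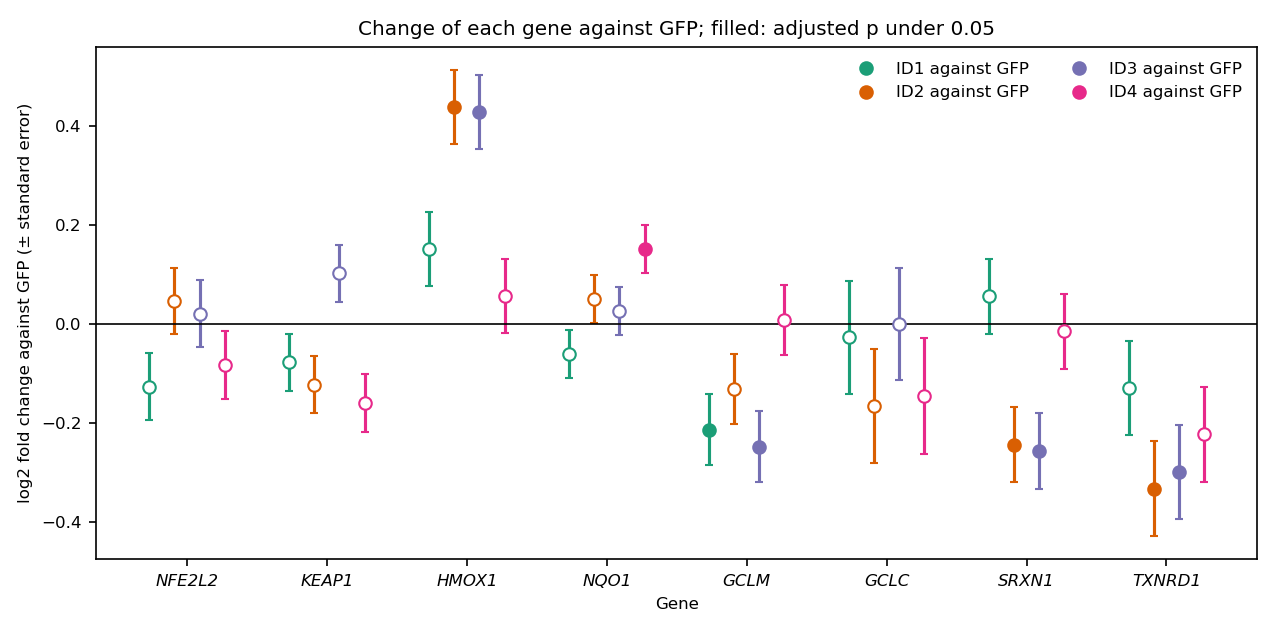
Log2 fold change against GFP with its standard error (vertical axis) for the 8 tested genes (horizontal axis) in ID1, ID2, ID3 and ID4, 3 libraries per group, from edgeR; filled points passed an adjusted p of 0.05. HMOX1 rises in ID2 and ID3, where SRXN1 and TXNRD1 fall, and no filled point is beyond 0.44 in size.

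ME1 encodes cytosolic malic enzyme, a source of NADPH, and lies on chromosome 6 from 83920121 to 84140770, minus strand. It had 1 count in ID1 replicate 2, 1 count in ID4 replicate 3 and 0 in the other 13 libraries, all below the floor of 3 counts. It was not tested, and no difference was detectable at this depth. Neighbouring genes and the other malic enzymes were looked up after these values were seen. PGM3, at lower coordinates, had 237 to 369 counts per library and CYB5R4, at higher coordinates, 66 to 125, while RWDD2A and PRSS35, the genes next to ME1, had 0 to 1. Of the other malic enzymes, mitochondrial ME3 had 0 to 7 counts and mitochondrial ME2 had 49 to 84.

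The tested genes nearest to each member on its chromosome were used to describe its surroundings, with 11732 of the 12870 tested genes placed on GRCh37 by symbol. Around HMOX1 the 50 nearest tested genes had median log2 fold changes of -0.09 in ID2 and -0.06 in ID3, beside 0.44 and 0.43 for HMOX1. Around TXNRD1 the medians were -0.06 in ID2 and -0.03 in ID3, and around GCLM 0.13 in ID1 and 0.03 in ID3. SRXN1, with 33 tested genes counted around it, had medians of -0.15 in ID2 and -0.08 in ID3, the same sign as its own -0.24 and -0.26. Around NQO1 the median in ID4 was 0.04.

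Likeness of pattern was described by the Pearson correlation of log2 CPM over the 15 libraries, whose points share the library and the group means, so no p is given. HMOX1 was most like LMOD1 (r = 0.924) and STRA13 (0.920), SRXN1 most like ARFGEF1 and NSUN2 (0.945 each) and KEAP1 most like G3BP2 (0.934) and PINK1 (0.907). NQO1 was most like DNM1 (0.931) and SRGN (0.889), and TXNRD1 most like RAB43 (0.913) and TMEM14B (0.905). For GCLM these were RPS18P9 (0.862), a pseudogene whose counts can be shared with its parent gene, and KIAA1549L (0.858). For GCLC they were LINC01138 (0.852) and SIAH2 (0.836), and for NFE2L2, the member with the weakest match, TMEM256 (0.808) and SLC9A9 (0.784). LINC01138 and SLC9A9 were near the detection floor in part of the libraries, at 9 and 12 counts at their lowest. None of these 16 genes was another member.

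The other genes of the NRF2 system were read from a list of 48 in 7 roles, of which 46 were tested (NFE2L3 and ALDH3A1 were below the expression limit). In ID1, 8 were higher and 11 lower, in ID2 17 and 11, in ID3 12 and 7, and in ID4 7 and 6, with the background shares given above for each comparison. The medians of the list were -0.01, 0.05, 0.10 and -0.0099. Without ID2 replicate 3 the ID2 counts were 18 and 11, and 27 of the 28 genes that had passed did so again in the same direction. In all 4 comparisons 5 genes rose (GPX1, MGST1, TALDO1, FTL and FTH1) and 3 fell (SLC7A11, GSTP1 and CBR1), where 6.11% of all tested genes rose and 4.16% fell in all 4. These comparisons share GFP. Of the list, 13 genes passed in none. The share of all tested genes that passed in none was not computed, so nothing is read from that count.

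**Figure D3:**
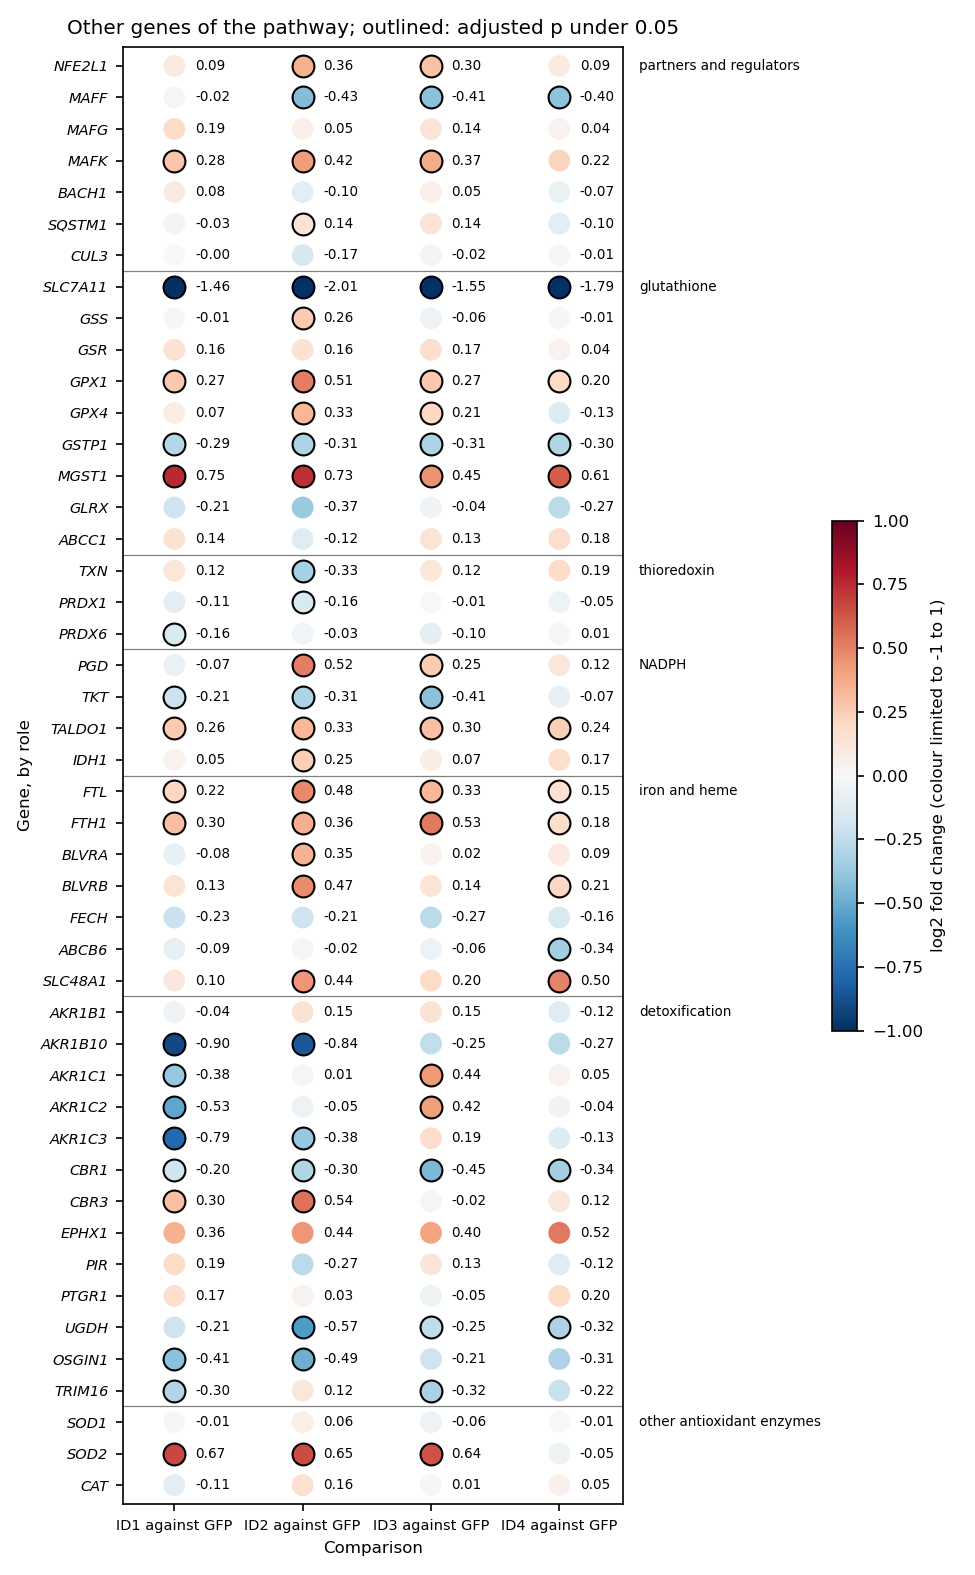
Log2 fold change against GFP of the 46 tested genes of the pathway list (rows, by role) in ID1, ID2, ID3 and ID4 (columns), printed beside each point and shown by colour; outlined points passed an adjusted p of 0.05 in edgeR. SLC7A11 is lowest in all 4 columns, from -1.46 to -2.01, and the glutathione group holds both this fall and the rises of MGST1 and GPX1.

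Among NRF2's partners and regulators, MAFK, a small MAF protein that pairs with NRF2, rose in ID1, ID2 and ID3 (log2 fold changes 0.28, 0.42 and 0.37), while MAFF, another small MAF, fell in ID2, ID3 and ID4 (-0.43, -0.41 and -0.40, adjusted p up to 0.00706 in edgeR). NFE2L1, the NRF2 relative that controls proteasome genes, rose in ID2 (0.36) and ID3 (0.30). BACH1, the repressor of HMOX1, had values between -0.10 and 0.08 and did not pass in any comparison, and neither did CUL3, the ubiquitin ligase scaffold that works with KEAP1, or MAFG, although without ID2 replicate 3 MAFG was higher in ID2 (0.22, adjusted p = 0.0494). SQSTM1, which binds KEAP1, was higher in ID2 (0.14, adjusted p = 0.0394), a call lost without ID2 replicate 3 (0.07, adjusted p = 0.266).

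The largest change in the list was that of SLC7A11, the cystine importer that feeds glutathione synthesis upstream of GCLC and GCLM. SLC7A11 was at 52.1, 54.4 and 49.6 CPM in GFP, 19.8, 18.5 and 18.9 in ID1, 11.1, 14.5 and 12.7 in ID2, 19.6, 16.2 and 18.3 in ID3 and 13.1, 16.1 and 16.1 in ID4. Every GFP library was above all 12 others by more than 2-fold. The falls were 2.76-fold in ID1, 4.02-fold in ID2, 2.93-fold in ID3 and 3.46-fold in ID4 (log2 fold changes -1.46, -2.01, -1.55 and -1.79, SE 0.09 to 0.10, adjusted p up to 1.08e-10 in edgeR). ID2 was lower than ID1 (-0.55, adjusted p = 0.000824) and than ID3, where ID3 against ID2 was 0.46 (adjusted p = 0.00501). The change of the transporter was many times that of the ligase subunits on the same log2 scale, where GCLM did not exceed 0.25 in size.

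In the rest of the glutathione group, MGST1, a membrane glutathione transferase, rose in all 4 ID groups (0.75, 0.73, 0.45 and 0.61), and GPX1, a glutathione peroxidase, rose by 0.20 to 0.51. MGST1 in ID2 was at 331, 314 and 187 CPM, where replicate 3 was no higher than the highest GFP library (187), and without it the rise was 0.94. GSTP1, a cytosolic transferase, fell by close amounts everywhere (-0.31 to -0.29). GPX4, which reduces lipid peroxides, rose in ID2 (0.33) and ID3 (0.21), and GSS, the second enzyme of glutathione synthesis, rose in ID2 alone among the comparisons with GFP (0.26, adjusted p = 0.00364, edgeR). ID2 was also above ID1, ID3 and ID4 for GSS in the tests between ID groups. GSR, GLRX and ABCC1 did not pass.

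In the thioredoxin group TXN, thioredoxin itself and the substrate of TXNRD1, fell in ID2 (-0.33, adjusted p = 0.00530, edgeR) and lay between 0.12 and 0.19 without passing in the other groups. TXN was lower in ID2 than in ID1 (-0.45), and ID3 and ID4 were above ID2 by 0.45 and 0.52 (adjusted p up to 0.00125). Without ID2 replicate 3 these were -0.30, 0.30 and 0.37, and all still passed. The levels of TXN in ID2 were 464, 481 and 326 CPM, with replicate 3 lowest as for TXNRD1 and SRXN1, and without that library the fall against GFP was -0.18 (adjusted p = 0.00999). PRDX1, a peroxiredoxin that thioredoxin reduces, also fell in ID2 (-0.16, adjusted p = 0.0101), and PRDX6 fell in ID1 (-0.16, adjusted p = 0.0333).

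Among the other genes of heme and iron handling, most of those that passed were rises. FTH1 and FTL, the ferritin subunits that store the iron heme oxygenase releases, rose in all 4 groups. FTL ran from 0.15 in ID4, which passed only narrowly (adjusted p = 0.0481, edgeR), to 0.48 in ID2. FTH1 was at 3784, 3585 and 3492 CPM in GFP, 4456, 4578 and 4502 in ID1, 4457, 4507 and 4820 in ID2, 5227, 5466 and 5175 in ID3 and 4144, 4134 and 4036 in ID4. Every ID library was above every GFP library, and the rise of FTH1 ran from 0.18 in ID4 (adjusted p = 0.00483, edgeR) to 0.53 in ID3 (adjusted p = 6.25e-09). Both ferritin genes have many processed pseudogenes, and how their reads were assigned is not given in the sources used here. In ID2 the biliverdin reductases BLVRA (0.35) and BLVRB (0.47) and the heme transporter SLC48A1 (0.44) rose as well. In that group 5 of 7 genes of this role were higher and 0 lower, with a median of 0.36. Among all tested genes, 18.5% were higher in ID2 and 16.7% lower. In ID3, where HMOX1 rose as much, FTL and FTH1 alone passed, with a median of 0.14 (15.1% higher and 13.5% lower among all tested genes). ID4, with no rise of HMOX1 that passed, had 4 higher (FTL, FTH1, BLVRB and SLC48A1) and 1 lower (ABCB6), beside 12.1% and 9.51% of all tested genes.

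**Figure D4:**
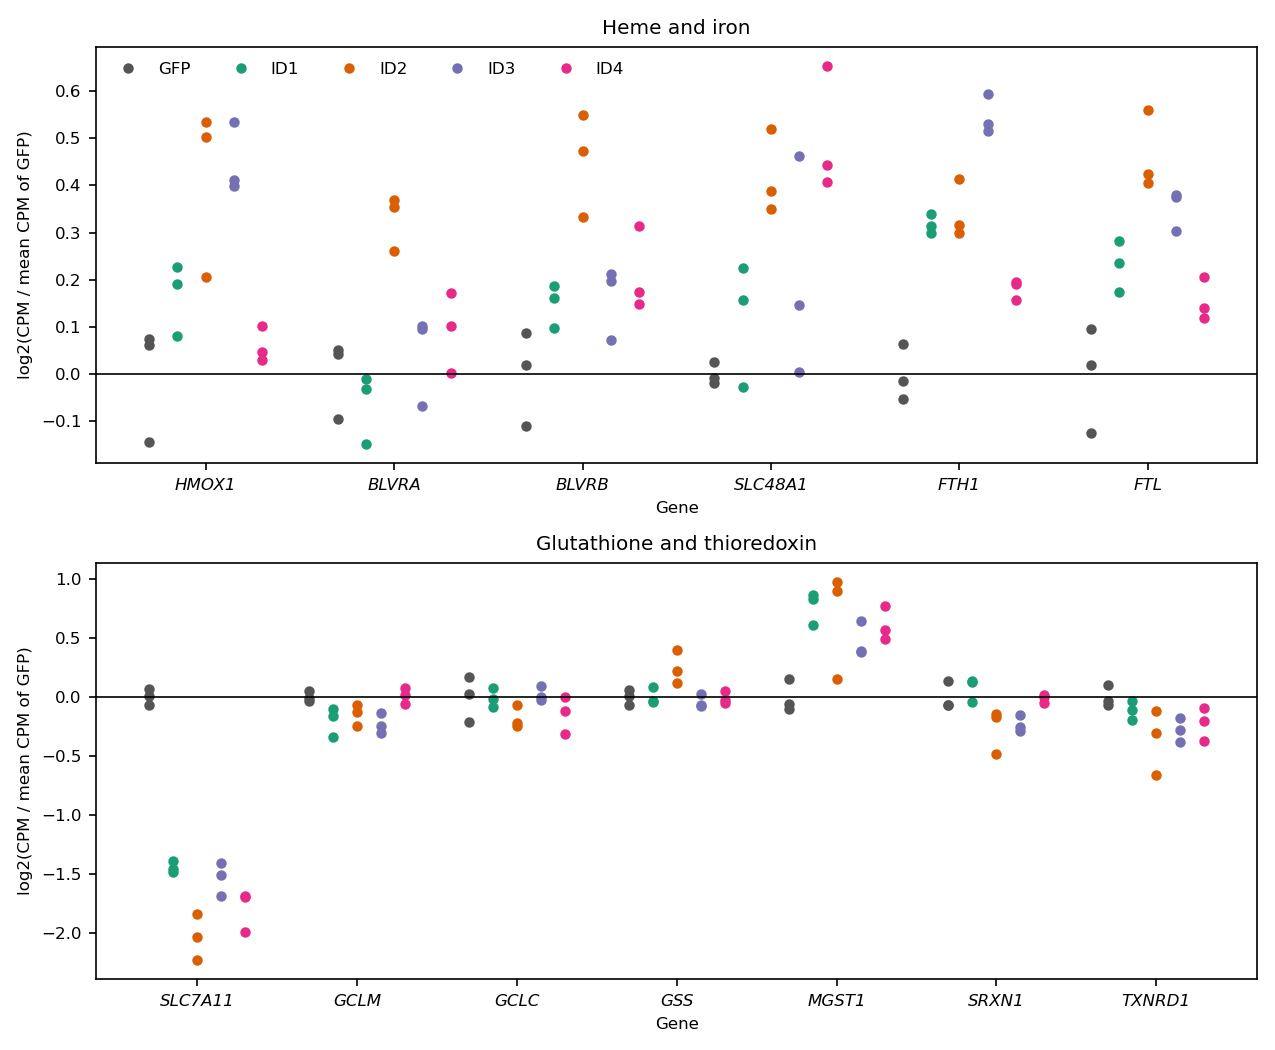
Log2 of each library's CPM over the mean CPM of GFP (vertical axes, different scales) for genes of heme and iron handling (upper panel) and of the glutathione and thioredoxin systems (lower panel); dots are the 15 libraries, coloured by group. HMOX1 is highest in ID2 and ID3, the ferritins FTH1 and FTL are above GFP in all ID groups, and SLC7A11 lies far below GFP in all 12 ID libraries while GCLM and GCLC stay near 0.

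Among the genes listed under NADPH, not all of which make it, TALDO1 rose in all 4 groups (0.24 to 0.33). PGD rose in ID2 (0.52) and ID3 (0.25), and IDH1 rose in ID2 (0.25). TKT, which shares the pentose phosphate route with TALDO1, fell in ID1, ID2 and ID3 (-0.21, -0.31 and -0.41, adjusted p up to 0.0385 in edgeR). Detoxification was the role with the most genes and the one NQO1 belongs to, though not all genes listed there are such enzymes. Of its 13 tested genes, 7 were lower and 1 higher in ID1. Among all tested genes, 9.73% were lower and 12.4% higher in ID1. AKR1C1, AKR1C2 and AKR1C3 fell in ID1 (-0.38, -0.53 and -0.79), AKR1C1 and AKR1C2 rose in ID3 (0.44 and 0.42), and all 3 were higher in ID3 than in ID1 (0.82, 0.95 and 0.97, adjusted p up to 6.94e-08). These 3 genes are similar in sequence, AKR1C1 and AKR1C2 most closely, and reads can be split between such copies. Their separate values are therefore uncertain. AKR1B10 fell in ID1 (-0.90) and ID2 (-0.84), OSGIN1 in the same groups (-0.41 and -0.49), and the carbonyl reductases CBR1 and CBR3 went opposite ways in ID1 and ID2. Among other antioxidant enzymes, SOD2, the mitochondrial superoxide dismutase, rose in ID1, ID2 and ID3 (0.67, 0.65 and 0.64) but was at -0.05 in ID4, and ID4 was lower than each of the other 3 ID groups (-0.72 to -0.69, adjusted p up to 1.44e-07). SOD1 and CAT did not pass in any comparison with GFP, but without ID2 replicate 3 CAT rose in ID2 (0.33, adjusted p = 0.00159).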

How the data were processed

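The deposited table gave, for each gene entry and library, raw read counts and a second block of log2 values that the authors normalized between libraries. Its file name names quantile normalization. The company eBiogen prepared the QuantSeq 3′ libraries and used hg19, the GRCh37 build. The submitters' processing notes name Bowtie2 and BWA without versions. The counting tool, annotation and strand setting are not given in the sources used here. Columns repeat their names in both blocks and were read by position, and 0 columns were left unmapped. No molecular identifiers are mentioned, and floors therefore reflect counting error alone.

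The deposited log2 values served to choose the tested entries, the upper 50% by mean over all libraries. The quasi-likelihood test of edgeR 4.0.16 (R 4.3.3) was run on the counts, with TMM factors of 0.978 to 1.03, 1 mean per group over all 15 libraries and Benjamini-Hochberg adjustment over all tested genes. The common dispersion was 0.00463. CPM used library totals without TMM. Scripts were tested on simulated counts. Alternatives were a mean of 10 or more counts, no filter, DESeq2 size factors, DESeq2 1.42.0, limma 3.58.1 with trend, only the 2 groups compared, a replicate block, each library left out, and the rule of the study's methods (a 2-fold change with an unadjusted p). The fits between ID groups and the pathway genes without ID2 replicate 3 were added after seeing the data. The study's methods gave that rule for a signature only, so it was an alternative.

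The members, the pathway list and the markers were chosen with earlier results of these data known. Named genes were the 9 members, the 48 pathway genes (1 further gene of the planned list is not reported here), the 13 markers, the ID genes and, for each tested member, the 2 genes most like it. The genes around ME1 were chosen after its values were seen. Replicate numbers were not used to pair libraries. Python 3.11.15 and matplotlib 3.10.9 served for tables and figures.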

Additional observations from a re-analysis of the deposited data

How the results depend on the processing

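Of 416 recomputed log2 fold changes of the 8 tested members against GFP, 374 kept their direction and their side of the threshold, 21 kept the direction but no longer passed, 6 newly passed and 15 changed sign. Only 9 of the 32 comparisons had passed, so most of the 416 had no call to lose. The 21 lost calls were of GCLM in ID1 and ID3, NQO1 in ID4, SRXN1 in ID2 and ID3 and TXNRD1 in ID3. None of the sign changes was of a value that had passed. Under the rule of the study's methods, 0 members passed in each of the 4 comparisons with GFP, 1 pathway gene (SLC7A11) passed in each, and 631, 834, 621 and 599 genes passed in all for ID1, ID2, ID3 and ID4. With the 2 groups alone, 3 members (KEAP1, NQO1 and TXNRD1) passed in ID4 against GFP. Leaving out each library in turn gave 0 to 1 members in ID1, 2 to 3 in ID2, 2 to 4 in ID3 and 0 to 1 in ID4. The lowest count for ID3 came without ID3 replicate 1 or ID3 replicate 2, and that for ID2 without GFP replicate 3. Counts of pathway genes in ID4 were 9 to 14, lowest without GFP replicate 2. Under the replicate block, 1 member passed in ID4 against ID2 instead of 2, as it also did without ID2 replicate 3. Deviations of same-numbered libraries from their group means had correlations from -0.249 to 0.244, with 3 of 30 pairs over 0.1. The lowest and the highest both involved ID2 replicate 3. With 3 libraries per group such values cannot show whether the numbers mark a shared batch, which the labels do not say. The replicate block moved no count against GFP by more than 1.5 times. The sign changes came mostly from leaving out a library, where the log2 fold change ran from -0.12 to 0.06 for GCLC in ID1, from -0.0049 to 0.07 and from -0.03 to 0.05 for NFE2L2 in ID2 and ID3, from -0.00052 to 0.07 for NQO1 in ID3 and from -0.09 to 0.09 for GCLC in ID3. In ID4 the range was -0.02 to 0.10 for HMOX1, -0.03 to 0.04 for GCLM and -0.06 to 0.05 for SRXN1. GCLC in ID3 also turned to -0.0013 with DESeq2 or its size factors and to -0.00027 under the replicate block. Beyond the removal of a library, the causes were not tested. GCLC had the lowest counts of the tested members, at 138 to 198 per library, and the part of depth in its sign changes was not tested. ME1 never reached the floor of 3 counts.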
